A study of Mus musculus with 84 samples.

Results

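Hox genes encode homeodomain transcription factors that lie in 4 clusters, HoxA to HoxD, and are numbered by paralogue group from 1 at the 3′ end of a cluster to 13 at its 5′ end. The levels of 38 Hox genes were taken from the 48526 genes counted in the EAE experiment, and those of 32 of them from the 25773 genes counted in the subtype experiment. Members were taken by symbol, but the set was chosen with earlier results of these data known. Genes described one by one were picked by their level, by their p or after their values were seen. Hoxd1, Hoxa4, Hoxa11, Hoxd12, Hoxb13 and Hoxd13 had no row in the subtype table used here.

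During development, genes at the 3′ end of each cluster are switched on first and reach furthest forward, while genes toward the 5′ end are expressed further back, an order known as collinearity. The lowest-numbered groups mark segments of the hindbrain and higher-numbered groups mark successive levels of the spinal cord, whereas the forebrain and midbrain, and the cerebellum that forms at the midbrain border, arise in front of the Hox domain. Hox proteins bind DNA together with TALE cofactors of the Pbx, Meis and Pknox families, and Polycomb and trithorax proteins keep each gene off or on. Adult cells of the nervous system, astrocytes included, often keep part of the Hox pattern of the level where they formed.

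RNA was measured by 3′ end sequencing in astrocytes sorted as CD11Bneg CD45neg ACSA-2pos events and split by surface GLAST. In the EAE experiment, female C57BL/6J mice aged 10 weeks were immunized with a myelin oligodendrocyte glycoprotein peptide in complete Freund's adjuvant and given pertussis toxin, and were taken at score 1 (E1, limp tail), at score 4 (E4, hind leg paralysis) or at the chronic stage (Ech), beside unimmunized controls (C). Hindbrain (cerebellum and brain stem) GLASTneg astrocytes gave 5, 6, 6 and 6 libraries at C, E1, E4 and Ech, hindbrain GLASTpos astrocytes gave 5, 6, 6 and 4, and spinal cord (cervical and thoracic) GLASTneg astrocytes gave 5, 5, 6 and 6. The subtype experiment held 3 libraries for each of 5 labelled populations of untreated wildtype FVB/N mice, for which no age is given here, and 3 libraries of astrocytes cultured from the cerebrum of newborn C57BL/6 mice. A library could hold the pooled cells of 2 mice. The EAE titles carry numbers of which 31 of 35 recur in more than 1 population and none in more than 1 stage, so libraries of different populations can come from the same mice, and comparisons between populations were also fitted with these numbers as a block. For the FVB/N libraries the labels do not say which share animals, and p-values there measure the spread between libraries, which may in part be technical.

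Libraries of the EAE experiment held 1313682 to 4895220 counts (median 2936680) and those of the sorted FVB/N cells 416768 to 1269316 (median 907710). Levels are given as CPM, read counts scaled to library size after TMM, and a gene counts as detected where a library holds over 3 reads of it, a floor between 0.634 and 2.44 CPM in the EAE libraries and between 2.44 and 6.995 CPM in the FVB/N libraries. Floors cover counting error only. Because one read stands for one transcript end, CPM was not divided by gene length, and levels of different genes are compared on that scale. A gene was called when its adjusted p (edgeR's quasi-likelihood test, Benjamini-Hochberg over all genes tested) was under 0.05 and its log2 fold change above 1 or below -1. Enough counts for a test were present for 31 of the 38 genes in the EAE experiment and for 22 of the 32 in the FVB/N populations. The 7 without a test in the EAE experiment were Hoxb1, Hoxd10, Hoxa11, Hoxd11, Hoxc12, Hoxd12 and Hoxd13.

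On GRCm38 the HoxA cluster lies at chr6:52162417-52260880 on the minus strand with 10 of the 38 genes, HoxB at chr11:96194316-96368256 on the plus strand with 10, HoxC at chr15:102921103-103036852 on the plus strand with 9 and HoxD at chr2:74668310-74765142 on the plus strand with 9. Over the last 500 bases of a gene, where 3′ reads fall, 31 genes share no annotated exon with another gene, 6 (Hoxb2, Hoxb3, Hoxa3, Hoxd3, Hoxa4 and Hoxa7) lie across from an antisense transcript, and Hoxd4 shares its end with Gm28230, which had no counts. The strand setting of the authors' counting is not given in the sources used here, so reads of those 6 genes and of their antisense partners may not be separable. The promoters of 3 genes are printed because the results below turn on them. Hoxd8 and Hoxd4 of the HoxD cluster were the highest Hox genes of the cord at score 4, and Hoxb8 is the paralogue of Hoxd8 in HoxB. Hoxd4 and Hoxb8 were both called lower at score 4 than in controls. Each run holds 300 bases on the plus strand, from 250 bases before the RefSeq start of the gene to 50 after it (RefSeq, GRCm38.p6, chr2:74704365-74704664, chr2:74721728-74722027 and chr11:96281655-96281954), and capitals mark CG dinucleotides. For Hoxd4 this window lies inside the GENCODE span of the gene, which begins at chr2:74711929.
Hoxd8: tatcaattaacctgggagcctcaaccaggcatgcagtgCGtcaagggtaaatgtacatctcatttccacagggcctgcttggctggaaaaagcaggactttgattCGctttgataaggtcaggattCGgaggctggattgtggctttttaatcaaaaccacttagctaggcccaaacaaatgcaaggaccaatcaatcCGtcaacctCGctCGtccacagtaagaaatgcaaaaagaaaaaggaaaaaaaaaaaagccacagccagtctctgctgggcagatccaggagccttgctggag
Hoxd4: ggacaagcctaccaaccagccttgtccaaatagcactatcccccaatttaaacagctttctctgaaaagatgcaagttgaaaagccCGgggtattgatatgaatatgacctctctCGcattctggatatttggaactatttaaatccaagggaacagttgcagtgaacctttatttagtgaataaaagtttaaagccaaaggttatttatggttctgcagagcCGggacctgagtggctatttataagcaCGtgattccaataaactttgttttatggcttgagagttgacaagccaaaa
Hoxb8: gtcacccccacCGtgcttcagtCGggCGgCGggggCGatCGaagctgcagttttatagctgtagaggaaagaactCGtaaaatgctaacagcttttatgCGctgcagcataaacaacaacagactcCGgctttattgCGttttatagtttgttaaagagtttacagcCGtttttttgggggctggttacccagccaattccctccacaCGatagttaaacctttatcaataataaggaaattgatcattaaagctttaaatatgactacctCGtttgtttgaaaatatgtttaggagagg

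The Hoxd8 promoter holds 6 CG dinucleotides, that of Hoxd4 holds 4 and that of Hoxb8 holds 13. Among the promoters at hand of genes called lower in cord at E4, the number ran from 4 (Hoxd4 and Hoxa9) to 29 (Hoxa5). A link between this number and the level was not tested. The median over 32851 promoters of the same length was 7, and the median over 24 promoters of 22 Hox genes was 14.5 with a range of 4 to 45. Windows with at least 6 CG dinucleotides made up 56.4% of all promoters, windows with at least 4 made up 68.6% and windows with at least 13 made up 37.9%. The composite site of Pbx and Hox proteins (TGATTNAT, searched on both strands) was present in 2 of the 24 Hox promoters and in 3.22% of all promoters, and the site of Meis and Pknox proteins (TGACAG, both strands) in 2 of 24 and in 19.2%. None of the 3 printed windows holds either site, which says only that these letters are not there.

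The control cord carried a broad Hox pattern and the control hindbrain a narrow anterior one. In control cord, 21 genes of paralogue groups 2 to 10 were detected in all 5 libraries, and the summed level of the 38 genes was 1322, 1228, 757, 1228 and 1159 CPM in replicates 1 to 5. In control hindbrain GLASTneg astrocytes, 4 genes of groups 4 and 5 (Hoxb4, Hoxc4, Hoxd4 and Hoxa5) were detected in all 5 libraries, and the sum was 66.7, 95.2, 85.9, 105.6 and 59.01 CPM. In control hindbrain GLASTpos astrocytes no Hox gene was detected in every library, and the sum lay between 0 and 17.2 CPM. The 3 populations did not overlap in this sum.

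Between control cord and control hindbrain GLASTneg astrocytes, 17 of the 31 tested genes were called higher in cord and none lower, against 2.62% of all 23324 genes tested that were called higher. By paralogue group the called genes were Hoxb4 and Hoxd4, Hoxa5 and Hoxb5, Hoxb6 and Hoxc6, Hoxa7 and Hoxb7, Hoxb8, Hoxc8 and Hoxd8, Hoxa9, Hoxb9, Hoxc9 and Hoxd9, and Hoxa10 and Hoxc10. No gene of groups 1 to 3 was called. Hoxa2, a gene of the second rhombomere, had 1.57 to 5.73 CPM in cord and 1.12 to 6.44 in hindbrain, with a log2 fold change of 0.27 ± 1.23 (SE). Over the 29 genes with more than 3 counts in a library of either group, the median log2 fold change was 2.93 with genes at 0 set to their bound, and over all genes it was 0. Sequencing sample numbers in the labels were 56 or lower in all 5 hindbrain libraries and over 56 in all 5 cord libraries. Region and sample number cannot be told apart in this comparison.

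Hoxd4, which marks the posterior hindbrain and the neck, was the highest Hox gene of both regions. Its level was 207, 165, 108, 261 and 229 CPM in control cord and 25.1, 48.3, 51.3, 45.0 and 21.9 CPM in control hindbrain GLASTneg astrocytes, so every cord library lay above every hindbrain library (log2 fold change 2.34 ± 0.52, adjusted p = 0.0015). Hoxb4, its paralogue in HoxB, had 31.5 to 79.3 CPM in cord and 7.22 to 13.2 in hindbrain (2.59 ± 0.70, adjusted p = 0.0118). Hoxc4, the paralogue in HoxC, had 14.1 to 33.3 CPM in cord and 4.66 to 9.35 in hindbrain, without overlap, but did not pass the test (1.59 ± 0.78, adjusted p = 0.248). Hoxa5, needed for the phrenic motor column of the neck, had 73.5 to 152 CPM in cord and 1.84 to 12.7 in hindbrain (4.35 ± 0.78, adjusted p = 5.36e-05).

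From group 6 on, the cord levels stood against counts near 0 in hindbrain. Hoxc6, which marks the forelimb level, had 101, 108, 102, 102 and 148 CPM in control cord and a mean of 0.617 in hindbrain GLASTneg astrocytes (adjusted p = 2.82e-08). Hoxa7 had 53.0 to 130 CPM in cord against 1 count in all hindbrain libraries together, and Hoxc8, a gene of the lower neck and upper trunk, had 49.9 to 132 CPM against 2 counts. Hoxb8 was the exception, at 54.5 to 215 CPM in cord and at 8.50, 0, 0, 4.50 and 6.18 CPM in hindbrain (4.88 ± 0.83, adjusted p = 2.05e-05). Hoxd8, Hoxa9 and Hoxc9 had 0 counts in every control hindbrain library and were at least 27.6-fold, 32.2-fold and 35.4-fold higher in cord, taking the mean of 3 counts per hindbrain library as the floor.

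The posterior edge of the cord pattern lay at group 10 and varied between libraries. Hoxa10 had 9.42, 35.8, 2.87, 5.02 and 3.28 CPM and Hoxc10 had 14.9, 12.5, 9.17, 7.54 and 2.34 CPM in control replicates 1 to 5. Hoxc11 was at 28.5 CPM in control replicate 2 and at 0 in the other 4, and Hoxb13 was at 3.28 CPM in that library and at 0 in the others. The same library had the highest Hoxa10, Hoxd9 (34.1 CPM against 0 to 15.4) and Hoxb8 of the controls. Groups 12 and 13 were otherwise at 0 in control cord, with Hoxd11, Hoxc12, Hoxd12, Hoxa13, Hoxc13 and Hoxd13 at 0 in all 5 libraries. The mean paralogue number, weighted by CPM, was 6.82 in control replicate 2, 5.97 to 6.27 in the other control cord libraries and 3.86 to 5.10 in control hindbrain GLASTneg libraries.

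**Figure D1:**
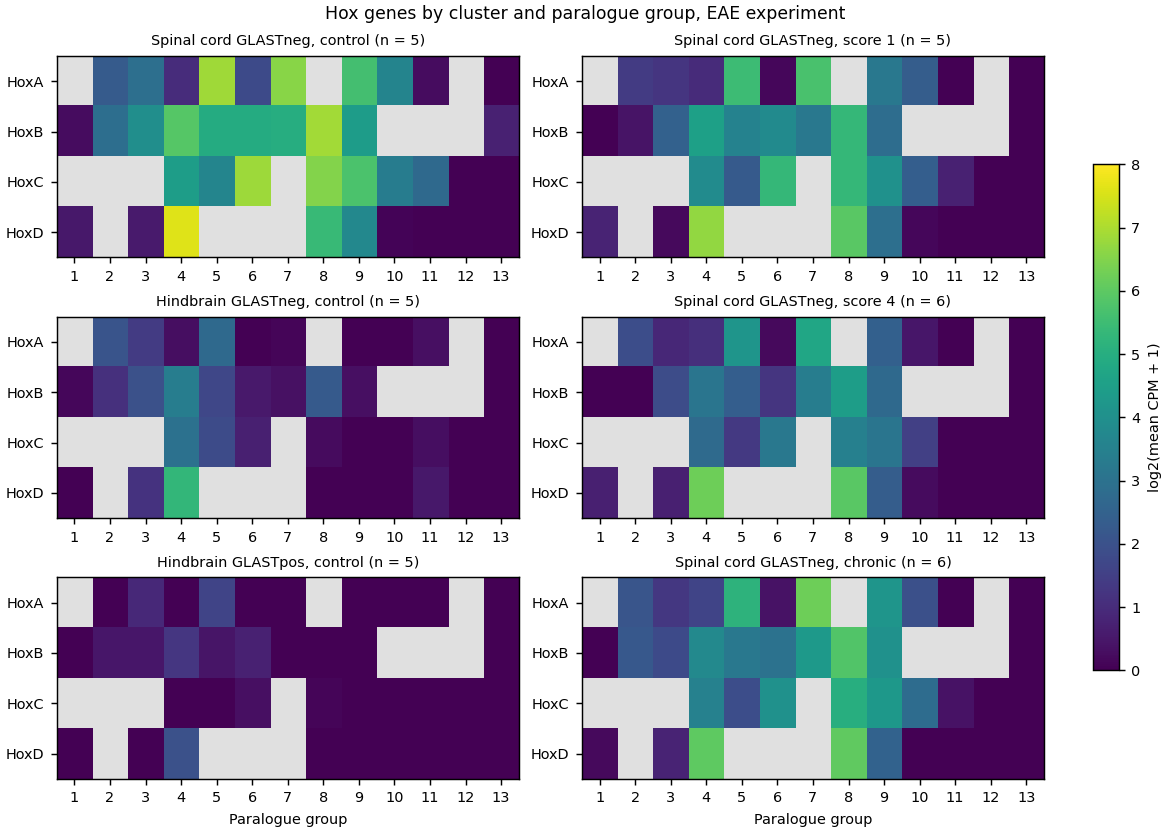
Mean level of each Hox gene, as log2(mean CPM + 1) on the colour scale, with clusters in rows and paralogue groups in columns. The left column shows the 3 control populations and the right column the cord at E1, E4 and Ech, and grey squares hold no gene or one that is not reported. Control cord is filled from group 2 to group 10, control hindbrain GLASTneg mainly at groups 4 and 5, and at E4 Hoxd4 and Hoxd8 stay bright while the rows HoxA, HoxB and HoxC darken.

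Within the control hindbrain the GLAST split also divided the Hox pattern. Of the 31 tested genes, 6 (Hoxa2, Hoxb4, Hoxc4, Hoxd4, Hoxc5 and Hoxb8) were called higher in GLASTneg than in GLASTpos astrocytes and none lower, against 7.06% of all genes. Hoxd4 was at 4.09, 0, 7.51, 3.30 and 0 CPM in GLASTpos libraries, below all GLASTneg libraries (3.69 ± 0.60, adjusted p = 3.7e-06), and Hoxc4 was at 0 in all 5. Hoxa5 had up to 8.34 CPM in a GLASTpos library and overlapped with GLASTneg (1.30 ± 0.79, adjusted p = 0.262). Summed levels of 6 Bergmann glia markers, a glia of the cerebellum, were 7432 CPM or more in control GLASTpos and 1247 to 1857 CPM in control GLASTneg libraries, and their part in the Hox difference was not tested. Sample numbers were over 56 in all 5 GLASTpos libraries and 56 or lower in all 5 GLASTneg libraries. The GLAST split and the sample number cannot be told apart here.

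During EAE the summed Hox level of cord isolates was lower than in controls at every stage, and lowest in mean at score 4. The summed level was 583, 676, 308, 386 and 563 CPM at E1 (44.2% of the control mean), 191 to 398 CPM with a median of 265 at E4 (24.6%) and 333 to 745 CPM with a median of 459 at Ech (42.2%). Every cord library of mice with EAE lay below the lowest control library, which had 757 CPM. When log2(CPM + 1) was averaged over genes, which weights them more evenly, and turned back into a ratio, the E4 and Ech totals came to 37.6% and 56.1% of control. Leaving out control replicate 3, the lowest control, gave 40.8%, 22.7% and 38.9% at E1, E4 and Ech.

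**Figure D2:**
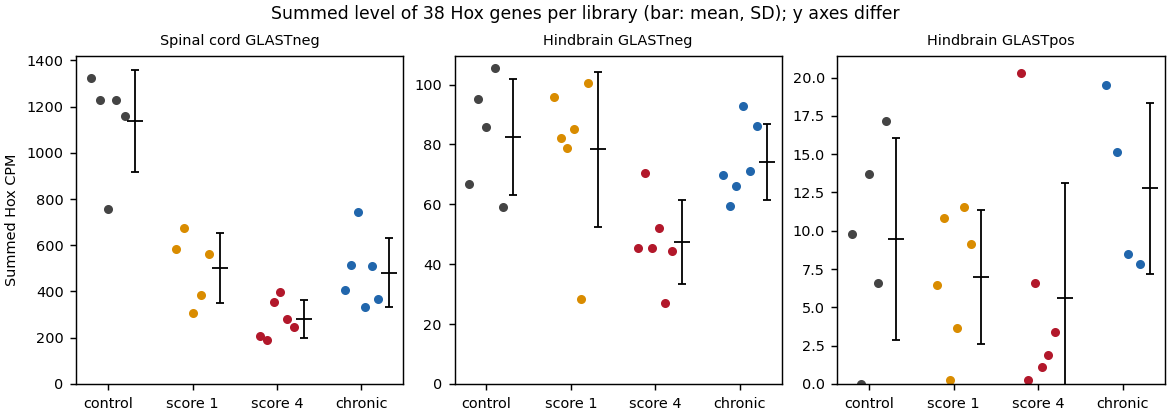
Summed CPM of the 38 Hox genes in each library (points) with the mean and SD of each group (bars, cut at 0), for spinal cord GLASTneg, hindbrain GLASTneg and hindbrain GLASTpos astrocytes, with a separate y axis for each. All 17 cord libraries of mice with EAE sit between 191 and 745 CPM, below the 5 controls at 757 to 1322 CPM, while the hindbrain groups overlap with their controls.

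At E4, 14 of the 31 tested genes were called lower than control and none higher, against 11.1% of all genes that were called lower. They came from groups 2 (Hoxb2), 4 (Hoxb4, Hoxd4), 5 (Hoxa5, Hoxb5), 6 (Hoxb6, Hoxc6), 7 (Hoxa7), 8 (Hoxb8, Hoxc8), 9 (Hoxa9, Hoxc9), 10 (Hoxa10) and 11 (Hoxc11). The median log2 fold change of the Hox genes was -2.41 with genes at 0 set to their bound. In 16 of the 38 genes every E4 library lay below every control library, as in 7.01% of all genes. The Hoxc11 call rests on the single control library with counts, and without control replicate 2 the count of calls was 12.

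Hoxc6 had the lowest p of the cord contrasts. Its level was 101 to 148 CPM in controls, 46.3, 80.7, 16.99, 16.8 and 34.02 CPM at E1, and 2.70 to 11.3 CPM with a median of 9.40 at E4 (log2 fold change -3.75 ± 0.69, adjusted p = 1.2e-05). All E4 libraries lay below all E1 libraries, and the step from E1 to E4 was itself called (-2.23 ± 0.66, adjusted p = 0.0244). At Ech it was 7.72 to 24.3 CPM and stayed below all controls (-2.84 ± 0.66, adjusted p = 0.000697).

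Further genes of the trunk were lower at E4. Hoxc8 went from 49.9 to 132 CPM in controls to 1.69 to 21.3 CPM with a median of 9.91 at E4 (-3.12 ± 0.64, adjusted p = 0.000115). Hoxa9 was at 58.5, 54.1, 21.5, 54.95 and 48.7 CPM in controls and at 0.228 to 12.4 CPM with a median of 3.13 at E4 (-3.42 ± 0.73, adjusted p = 0.000305). Hoxc9 was at 33.5 to 71.8 CPM in controls and at 5.00 to 10.7 CPM at E4 (-2.76 ± 0.62, adjusted p = 0.000571). Hoxb6 was at 13.6 to 49.1 CPM in controls and at 0 in 3 of 6 E4 libraries (-4.25 ± 1.11, adjusted p = 0.0025). None of these groups overlapped with control.

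The genes with the highest levels of HoxA and HoxB fell too. Hoxa5 was at 73.5 to 152 CPM in controls and at 4.94 to 32.5 CPM at E4 (-2.73 ± 0.66, adjusted p = 0.00102). Hoxa7 was at 53.0 to 130 CPM in controls and at 14.4 to 40.1 CPM at E4 (-1.88 ± 0.50, adjusted p = 0.00349). Hoxb8 was at 143, 215, 54.5, 83.2 and 92.2 CPM in controls and at 9.03 to 41.2 CPM at E4 (-2.49 ± 0.68, adjusted p = 0.00397). Hoxb4 was at 31.5 to 79.3 CPM in controls and at 3.38 to 18.3 CPM at E4 (-2.94 ± 0.66, adjusted p = 0.000379). Each of these 4 genes had all E4 libraries below all controls.

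Hoxb2, a gene of the anterior hindbrain, was the only gene detected in every control cord library that had no count in any E4 library. It was at 16.9, 4.26, 2.01, 5.97 and 3.28 CPM in controls, at 1.74 CPM in E1 replicate 1 and at 0 in the other E1 libraries, at 0 in all 6 E4 libraries and at 1.41 to 5.00 CPM in all 6 Ech libraries. It was at least 5.55-fold lower at E4, taking 3 counts per library as the floor (adjusted p = 0.000538), and at least 3.33-fold lower without control replicate 1, and the return from E4 to Ech was the only call between these stages (adjusted p = 0.00773), against 1.95% of all genes called higher. DESeq2 gave no adjusted p for Hoxb2 between Ech and E4 and called 0 Hox genes there. A paralogue on HoxA, Hoxa2, was at 0 to 8.44 CPM at E4 and 1.57 to 5.73 CPM in controls (-0.49 ± 1.17, adjusted p = 0.881).

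The clusters differed in the share of their control level that was present in EAE. At E4 the summed level of HoxA was 18.5% of the control mean, HoxB 16.9%, HoxC 11.6% and HoxD 56.8%, and at E1 the values were 39.4%, 34.1%, 38.4% and 69.2%. At Ech they were 48.2%, 40.7%, 27.95% and 54.4%. HoxD made up 17.8 to 25.1% of the Hox level in control libraries, 46.4 to 57.7% at E4 and 22.01 to 37.9% at Ech. Without Hoxd8, HoxD had a mean of 207.3 CPM in controls and 80.5 CPM at E4, and stood at 33.6% of control at Ech, below HoxA and HoxB. These shares are descriptions and were not tested.

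Hoxd8, a trunk gene chosen for description after its values were seen, was as high or higher in mean level at each EAE stage as in controls. Its level was 27.8, 46.2, 50.5, 40.8 and 38.4 CPM in controls, 40.3, 23.7, 84.9, 77.8 and 80.7 CPM at E1, 47.96 to 81.4 CPM with a median of 56.5 at E4 and 49.8 to 82.5 CPM with a median of 64.2 at Ech. The groups overlap, and no difference passed the test (log2 fold change 0.59 ± 0.57 at E1, 0.57 ± 0.55 at E4 and 0.68 ± 0.55 at Ech, adjusted p = 0.571, 0.50 and 0.421). Fitted on the cord groups alone, the Ech value was 0.70 with an adjusted p of 0.0285, which is under the fold limit for a call. As a share of the Hox level, Hoxd8 held 2.10 to 6.66% in controls and 17.1 to 28.8% at E4, and it went from rank 10 to rank 2 of the Hox genes. Its paralogues Hoxb8 and Hoxc8 were both called lower at E4, and the difference between the genes in response was not tested.

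Hoxd4 had a smaller fitted fall at E4 than its paralogue Hoxb4, a difference that was not tested. It was at 108 to 261 CPM in controls, 147, 110, 73.5, 112 and 70.01 CPM at E1, 49.4 to 114 CPM with a median of 63.5 at E4 and 44.9 to 90.9 CPM with a median of 58.0 at Ech. The E4 group overlapped with control replicate 3 and the Ech group lay below all controls. It was called lower at E4 (-1.37 ± 0.48, adjusted p = 0.0277) and at Ech (-1.60 ± 0.48, adjusted p = 0.0109), and the E4 call was lost when control replicate 4 or 5 or E4 replicate 1, 2 or 6 was left out (adjusted p = 0.0543 to 0.0718). Hoxd9, a neighbour of Hoxd8 in HoxD, was at 0, 34.1, 5.73, 5.97 and 15.4 CPM in controls and at 0 to 8.42 CPM at E4 (-1.54 ± 1.14, adjusted p = 0.354).

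**Figure D3:**
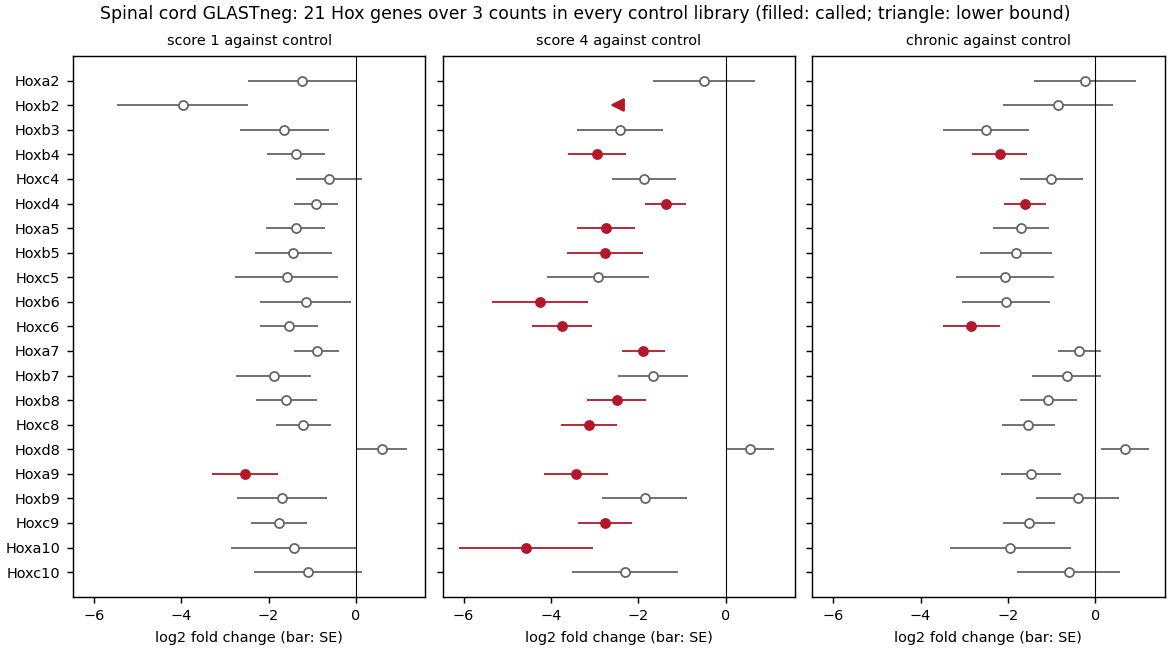
Log2 fold change from control with its SE (x axis) at E1, E4 and Ech in spinal cord, for the 21 Hox genes over 3 counts in every control library, ordered by paralogue group. Filled red points are called, and the triangle for Hoxb2 at E4 marks the lower bound of its fall. At E4 every one of these 21 genes but Hoxd8 lies left of 0, and Hoxd8 lies at 0.59, 0.57 and 0.68 at the 3 stages. The genes shown were chosen by their control level, which favours falls. Over all 31 tested genes, 4 had a log2 fold change above 0 at E4.

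Fewer paralogue groups were detected in every library at E1 and E4 than in controls, while the weighted mean paralogue numbers of each stage overlapped with those of controls. In all libraries of a group, 21 genes of groups 2 to 10 were detected in controls, 17 genes of groups 4 to 9 at E1, 11 genes of groups 4 to 9 at E4 and 18 genes of groups 2 to 9 at Ech. A fall in level alone moves genes under the 3-count floor, so these counts follow the level as well as the range. Counting genes detected in any library, the groups ran from 1 to 10 at E4 and from 1 to 13 in controls. The weighted mean paralogue number was 6.28 ± 0.33 (SD) in controls, 6.26 ± 0.26 at E1, 6.24 ± 0.11 at E4 and 6.66 ± 0.18 at Ech. Each stage overlapped with controls, but every Ech library lay above every E4 library, a difference that was not tested. Without Hoxd4 it was 6.73 in controls and 6.88, 7.06 and 7.08 at E1, E4 and Ech.

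By paralogue group, the E4 level in percent of the control mean was lowest for group 6 at 6.77% and highest among groups 2 to 10 for group 8 at 36.7%, to which Hoxd8 belongs, and group 4 at 32.6%, to which Hoxd4 belongs. Group 5 stood at 14.6%, group 7 at 28.1%, group 9 at 16.5% and group 10 at 11.7%. At Ech, group 7 was back at 74.3% and group 8 at 61.3% of control, while group 6 stood at 16.0%, group 3 at 21.9% and group 4 at 32.5%. The order of the groups along the cluster was not the order of the fall.

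At E1, 1 gene was called lower, Hoxa9, against 3.68% of all genes called lower. It was at 10.2, 6.84, 3.56, 11.7 and 8.44 CPM, all below the lowest control of 21.5 CPM (-2.54 ± 0.75, adjusted p = 0.0242), and lost the call without control replicate 1 or E1 replicate 3 (adjusted p = 0.051 and 0.0807). In 7 genes (Hoxb2, Hoxc6, Hoxb7, Hoxb8, Hoxa9, Hoxb9 and Hoxc9) every E1 library lay below every control library, as in 2.32% of all genes. The count of calls at E1 depended on the fit, with 2 to 13 genes in 5 of the alternative fits. From E1 to E4, 2 genes were called lower, Hoxc6 and Hoxc8 (-1.92 ± 0.62, adjusted p = 0.0491), against 3.97% of all genes. Both calls were lost when E1 replicate 1 or 2 or E4 replicate 2 or 6 was left out.

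At Ech, 3 genes were called lower than control, Hoxc6, Hoxd4 and Hoxb4 (-2.19 ± 0.64, adjusted p = 0.00894), against 9.57% of all genes. The called share, 3 of 31, is close to that of all genes. In 9 of the 38 genes every Ech library lay below every control library, as in 6.65% of all genes, among them Hoxa5 at 13.6 to 48.4 CPM (-1.70 ± 0.64, adjusted p = 0.0517) and Hoxc8 at 18.6 to 42.9 CPM (-1.53 ± 0.60, adjusted p = 0.0653). In 6 of the alternative fits 5 to 15 genes were called. Hoxa7 was at 73.6, 98.7, 97.9, 44.5, 80.7 and 47.7 CPM at Ech, overlapping with its controls (-0.36 ± 0.49, adjusted p = 0.703). Ech replicate 3 had the highest Hoxb7, Hoxb8 and Hoxb9 of the stage, at 47.1, 141 and 52.4 CPM, and the highest summed level.

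Sums of cell type markers in cord also differed between stages, and they did not all follow the Hox level. The sum of 10 astrocyte markers was 11990 to 17520 CPM in controls, 3221 to 21310 at E1, 401.6 to 1845 at E4 and 574.7 to 1384 at Ech, and 9 of the 10 were called lower at E4, with 1 higher. The sum of 10 oligodendrocyte markers was 14360 to 41870 CPM in controls, 26910 to 62070 at E1, 30360 to 77680 at E4 and 25390 to 41610 at Ech, with 8 of 10 called higher at E4. Control replicate 3, the control with the lowest Hox level, had the highest oligodendrocyte sum of the controls. Oligodendrocyte transcripts were thus present in these libraries, and their source was not tested. In bulk libraries fewer cells of a type and less RNA per cell cannot be told apart.

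Sums of 8 neuron markers were 211.8 to 522.9 CPM in control cord and 48.51 to 126.1 CPM at E4, those of 11 myeloid markers 11.81 to 35.69 and 125.2 to 4730 CPM, and those of 5 oligodendrocyte precursor markers 388.7 to 877.2 in controls and 795.0 to 2790 CPM at Ech. All 4 motor neuron markers were at 0 in every E4 library, and Isl1 and Slc18a3 were at 0 in every control cord library. Of the other lists, T cell markers reached 59.3 CPM, endothelial markers 40.41, pericyte and fibroblast markers 187.5, ependymal markers 63.23 and Schwann cell markers 85.23 CPM at most in a cord library. E4 replicate 2 had the myeloid sum of 4730 CPM, and without it 12 Hox genes were called at E4. The part of these cell types in the Hox fall was not tested.

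**Figure D4:**
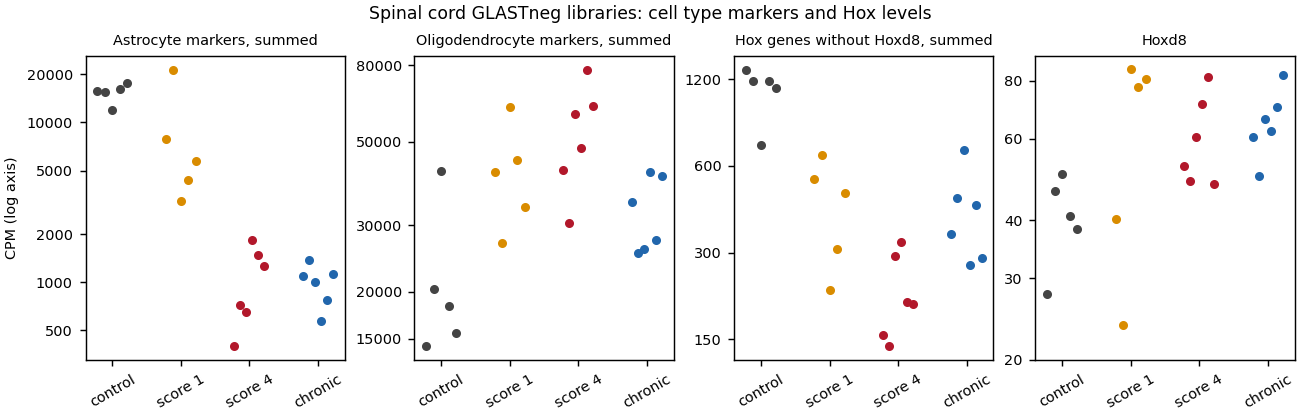
Summed CPM of 10 astrocyte markers, of 10 oligodendrocyte markers, of the Hox genes without Hoxd8, and the CPM of Hoxd8, in each spinal cord library by stage (log y axes that differ between panels). Astrocyte markers and the Hox genes without Hoxd8 are lower at E4 than in controls in every library, oligodendrocyte markers are mostly higher, and Hoxd8 at E4 lies between 47.96 and 81.4 CPM.

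Cord libraries differed in the sample number of the sequencing run that the labels carry. All 5 controls had numbers over 56, as did 4 of 5 libraries at E1, 1 of 6 at E4 and 4 of 6 at Ech. Among libraries with numbers over 56, the Hox sum was 757 to 1322 CPM in controls, 386 to 676 at E1, 353 in the E4 library and 369 to 745 at Ech. Among those with lower numbers it was 308 in the E1 library, 191 to 398 at E4 and 333.5 and 510.3 at Ech. No control library had a lower number and only 1 E4 library had a number over 56. Stage and sample number can hardly be told apart at E4. One E1 cord library, replicate 1, is labelled cord in its title and hindbrain in its region field, and its Hox sum of 583 CPM lay within that of the other E1 cord libraries. Without it, 2 genes were called at E1.

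In hindbrain GLASTneg astrocytes no Hox gene was called at any stage with edgeR, against 0.643%, 0.729% and 0.193% of all genes called in either direction at E1, E4 and Ech. An unadjusted p under 0.05 was reached by 1, 3 and 2 genes, and DESeq2 called 0 genes at each stage. The summed level was 28.4 to 100.4 CPM at E1, 27.0 to 70.4 CPM at E4 and 59.4 to 92.9 CPM at Ech, all overlapping with the control range of 59.01 to 105.6, with means of 95.1%, 57.5% and 90.1% of control. At E4, 5 of the 6 libraries lay below every control. Hoxd4 had 13.2 to 41.2 CPM at E1, 6.28 to 32.8 at E4 and 26.6 to 39.4 at Ech against 21.9 to 51.3 in controls. Hoxb4 was the only gene with a stage wholly below control, at 2.42 to 7.17 CPM at Ech against 7.22 to 13.2, as in 0.446% of all genes. Astrocyte marker sums in these libraries stayed between 17400 and 27710 CPM at all stages.

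The genes detected in every library of hindbrain GLASTneg astrocytes lay in groups 4 and 5 at all stages, while 13 to 15 genes of groups 2 and up were detected in at least 1 library of a stage. Hoxb4, Hoxc4 and Hoxd4 were detected in every library at E1, Hoxb4, Hoxd4 and Hoxa5 at E4, and all 4 genes at Ech. In hindbrain GLASTpos astrocytes no Hox gene was detected in every library of any stage, and sums ranged from 0 to 20.3 CPM. There, Hoxb4, Hoxd4 and Hoxa5 were called lower at E4 (adjusted p = 0.0243, 0.00412 and 0.0409), against 0.369% of all genes called lower, and Hoxa7 was called higher at Ech (adjusted p = 0.0309), against 1.21%. These calls rest on levels of at most 8.34 CPM in 1 control library and on 6.13 CPM of Hoxa7 in 1 Ech library with 0 in the other 3, and all were lost in a fit of the compared groups alone. No gene was called at E1 with edgeR, where 1.49% of all genes were, and 2 had an unadjusted p under 0.05, while DESeq2 called 0.

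The response to EAE was compared between cord and hindbrain GLASTneg astrocytes by an interaction term. At E4 the term was called lower in cord for 3 genes (Hoxb2, adjusted p = 0.0223, Hoxb4, 0.0499, and Hoxc9, 0.0439), against 6.00% of all genes, and at Ech for 1 gene (Hoxc6, adjusted p = 0.0401), against 5.26%. Hoxc9 was at 0 in every control hindbrain library, and Hoxc6 and Hoxb2 had means of 0.617 and 1.17 CPM there, so these 3 had next to no level in hindbrain from which to fall. For Hoxb4, the one of the 4 with the most counts in hindbrain, the difference in log2 fold change was -2.73 ± 0.93. With the numbers in the titles as a block, none of the 3 genes was called at E4 (Hoxb4, -2.99, adjusted p = 0.0577) and Hoxa5 was, and with replicate number as a block 0 genes were. A fall of posterior genes such as Hoxa9 in hindbrain was not detectable at this depth.

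The subtype experiment of FVB/N mice gave a Hox pattern that goes against some labels. Libraries labelled hindbrain GLASTneg had a summed level over 32 genes of 1070, 1069 and 1061 CPM, those labelled forebrain GLASTpos 169, 77.3 and 67.3 CPM, those labelled spinal cord GLASTneg 1.21, 18.4 and 1.03 CPM, those labelled hindbrain GLASTpos 1.62, 1.11 and 0 CPM, and those labelled forebrain GLASTneg 6.36, 4.23 and 1.17 CPM. A supplementary table of the study carries the same values under other group names for 12 of the 15 libraries. In it, the libraries labelled hindbrain GLASTneg are named spinal cord, those labelled forebrain GLASTpos are named hindbrain GLASTneg, those labelled spinal cord are named hindbrain GLASTpos and those labelled hindbrain GLASTpos are named forebrain GLASTpos. Bergmann glia markers summed to 7540 CPM or more in the libraries labelled spinal cord and to 1567 CPM or less at the median of each other population. The labels are used below, with calls under the other names beside them.

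The libraries labelled hindbrain GLASTneg had 16 genes of groups 4 to 11 detected in every library, with group 13 detected in some (Hoxc13 at 0, 16.0 and 18.6 CPM). Their highest genes were Hoxc8 at 172, 175 and 117 CPM, Hoxc6 at 142, 81.7 and 95.6 CPM and Hoxa5 at 127, 96.3 and 95.6 CPM. Hoxd4 was at 74.7, 120 and 62.95 CPM and Hoxc11 at 15.4, 24.8 and 53.6 CPM. The weighted mean paralogue number was 6.69, 7.05 and 7.22. In control cord of C57BL/6J mice, counted and scaled separately, Hoxc11 was at 0 in 4 of 5 libraries and the weighted number was 5.97 to 6.82, so the values are side by side and were not tested.

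Against the libraries labelled hindbrain GLASTneg, those labelled spinal cord GLASTneg had 17 of 22 tested genes called lower, against 3.93% of all genes called lower. Under the names of the supplementary table the contrast of cord with hindbrain GLASTneg had 8 genes called higher and none lower. By the labels, hindbrain GLASTneg had 16 genes called higher than forebrain GLASTneg (1.18% of all genes; 9 and 10 without forebrain GLASTneg replicate 2 and 3) and 17 higher than hindbrain GLASTpos (2.03% of all genes). Under the other names these counts were 4 and 2. Hoxc8, for example, was at 117 to 175 CPM in the libraries labelled hindbrain GLASTneg, at 0 in all 3 labelled spinal cord and at 1 count or less in each of those labelled forebrain GLASTneg and hindbrain GLASTpos.

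The libraries labelled forebrain GLASTpos carried an anterior pattern, with Hoxb3, Hoxb4, Hoxc4, Hoxd4 and Hoxa5 detected in all 3 and a weighted paralogue number of 4.37 to 4.59. Hoxd4 was at 29.4, 23.1 and 13.9 CPM, Hoxb4 at 29.4, 9.23 and 5.34 CPM and Hoxa5 at 62.2, 16.2 and 5.34 CPM. Against the libraries labelled forebrain GLASTneg, 4 genes (Hoxb4, Hoxc4, Hoxd4 and Hoxa5) were called higher, against 0.675% of all genes, and under the other names 0 were. The count was 1 without replicate 1 of the libraries labelled forebrain GLASTpos and 2 without replicate 2 or 3 of those labelled forebrain GLASTneg.

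**Figure D5:**
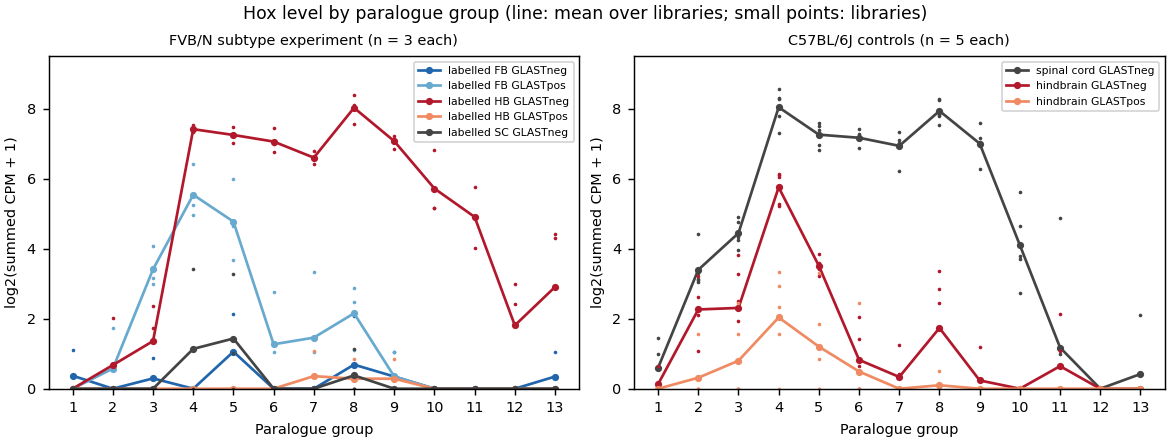
Summed level per paralogue group as log2(summed CPM + 1), for the FVB/N populations by their labels (left) and the C57BL/6J control populations (right), with small points for libraries and lines through the mean over libraries. The libraries labelled hindbrain GLASTneg span groups 4 to 11, and those labelled forebrain GLASTpos have their highest values at groups 4 and 5.

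In cultured cerebral astrocytes no Hox gene was detected in all 3 libraries, and the summed level was 22.3, 5.49 and 1.20 CPM. Against the mean of the 5 sorted FVB/N populations 0 of 23 tested genes were called with edgeR, where 31.7% of all genes were called in either direction, 1 gene (Hoxa2) had an unadjusted p under 0.05 and DESeq2 called 2. Hoxa5 was the highest gene of culture replicate 1 at 3.58 CPM. In this contrast the effects of culture, age, strain, region and sorting cannot be told apart, as the cultures came from cerebrum and the sorted cells from several regions.

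Genes that act with or on the Hox clusters were counted from fixed lists. Of 9 TALE cofactors, 0 were called higher and 2, 4 and 3 lower in cord at E1, E4 and Ech, where 3.68%, 11.1% and 9.57% of all genes were called lower, with medians of -0.98, -1.23 and -0.89 on the log2 scale. Meis2 was at 83.7 to 154 CPM in control cord and 16.4 to 35.0 CPM at E4 (-2.09 ± 0.42, adjusted p = 7.22e-05). Pbx3 was at 27.8 to 56.8 CPM in control cord and 30.9 to 55.3 CPM at E4 and was not called. In hindbrain GLASTneg astrocytes 0 of the 9 were called at any stage with edgeR.

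Of 22 Polycomb and trithorax genes, 0 were called in cord at E1, 2 were higher at E4, among them Phc2 of Polycomb repressive complex 1 (1.07 ± 0.32), and 1 was lower at Ech (Cbx7, -1.89 ± 0.55), where 6.80% of all genes were called higher at E4 and 9.57% lower at Ech. Of 22 upstream regulators, of which 15 were tested, 1 was higher and 3 were lower at E4, against 6.80% and 11.1% of all genes, and 1 was higher and 2 were lower at Ech, against 5.16% and 9.57%. Aldh1a1, which makes retinoic acid, was at 65.9 to 132 CPM in control cord, 14.7 to 43.2 at E4 and 7.06 to 19.5 at Ech (-2.76 ± 0.25 at Ech, adjusted p = 5.19e-15), and Gdf11, a signal of trunk and tail patterning, was at 36.4 to 73.5 and 5.33 to 24.3 CPM in controls and at E4 (-2.21 ± 0.32, adjusted p = 5.81e-08). Rarb, a retinoic acid receptor, was at 2.51 to 14.5 CPM in control cord and 0 to 4.32 CPM at E4 (-2.33 ± 0.63, adjusted p = 0.00385). Cyp26b1, which degrades retinoic acid, was at 383 to 626 CPM in control hindbrain GLASTneg and 1.26 to 33.0 CPM in control cord (-5.79 ± 0.56, adjusted p = 5.06e-12).

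Of 22 noncoding and neighbouring genes of the clusters, of which 15 were tested, 3 were lower in cord at E4 and 1 at Ech, against 11.1% and 9.57% of all genes. Hoxb3os, antisense to Hoxb3 and Hoxb2, was at 9.84 to 49.9 CPM in control cord, 0 to 7.78 at E4 and 0.454 to 6.13 at Ech (-4.27 ± 0.78 at E4, adjusted p = 1.31e-05). Hoxd3os1, a transcript of the HoxD cluster, was at 21.8 to 56.2 CPM in control cord and at 0 in every control hindbrain GLASTneg library (adjusted p = 7.19e-09), and at 9.88 to 28.8 CPM at E4 without a call. Of 13 brain patterning genes from in front of the Hox domain, 3 (Otx1, Otx2 and En1) were lower in control cord than in control hindbrain GLASTneg astrocytes, against 1.58% of all genes. In cord, Otx2 was called lower at E1 and Ech from at most 6.31 CPM in a control library, Emx2 and En1 were called higher at Ech, and with edgeR 0 were called at E4. Otx2 was at 83.7 to 119 CPM in control hindbrain GLASTneg and at 0 to 6.31 CPM in control cord, which is the reverse of the Hox genes.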

How the data were processed

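Per the labels and the study's methods, RNA of sorted astrocytes was sequenced from the 3′ end (QuantSeq), aligned to GRCm38 with HISAT and counted with HTSeq by the authors, who deposited raw counts per gene; the strand setting is not given in the sources used here. Libraries of the 66 EAE and 18 subtype samples were fitted and scaled separately. Genes with a total count of at least 10 in a fit were kept (23324 for EAE, 14957 for the FVB/N populations and 17126 with the cultures), scaled by TMM and tested with edgeR 4.0.16 (quasi-likelihood with a trended dispersion, R 4.3.3), one mean per group, p-values adjusted by Benjamini-Hochberg over all genes. A call needed an adjusted p under 0.05 and an absolute log2 fold change above 1. Depth ranged from 416768 counts in the sorted FVB/N libraries to 8188074 in the cultures.

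Alternatives were DESeq2 1.42.0, median-of-ratios scaling, no filter or filterByExpr, the compared groups alone, replicate number as a block, sample number as a covariate, no limit on the fold change, other group names for the FVB/N libraries and each library left out; fits without a library kept the dispersion trend of all libraries. The newer edgeR quasi-likelihood fit, and a block of the numbers that EAE titles share between populations (26 blocks, all within 1 stage; deviations of the 56 pairs correlated between -0.102 and 0.22), were added after the data were seen. Tests were checked on simulated data with 200 changed genes. In the cord contrast of E4 with control, 64% were recovered at a simulated log2 fold change of 2, with 2 false calls. For FVB/N hindbrain GLASTneg against forebrain GLASTneg, 57.5% were recovered at 3, with 3 false calls. A gene without a call can therefore still have changed. Replicate numbers did not pair the samples. Gene positions come from GENCODE vM21 and promoters from RefSeq; the study used another annotation release of the same build. Members and lists were chosen with earlier results of these data known, and 1 of the 39 Hox genes and some genes of the other lists are not reported here. Named genes were the 8 highest in control cord, the 4 highest in control hindbrain GLASTneg astrocytes and the 10 with the lowest p among those called in cord, and others named were chosen after their values were seen. Figures were drawn with matplotlib 3.10.9.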

Additional observations from a re-analysis of the deposited data

Results flagged for a closer look

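In 13 of 88 groups of values tested, the highest or lowest library stood far from the others by Dixon's criterion. Chance meets it in about 1 in 20 groups of independent, normally distributed values. CPM are skewed and many of these groups share libraries, so 13 of 88 cannot be set against that rate. The summed Hox level stood apart in control cord replicate 3 (757 CPM), hindbrain GLASTneg E1 replicate 5 (28.4 CPM) and hindbrain GLASTpos E4 replicate 1 (20.3 CPM). Control cord replicate 3 also had an oligodendrocyte marker sum of 41900 CPM and Hoxa9 at 21.5 CPM, both apart from the other controls. Among single genes in cord, Hoxc6 was at 148 CPM in control replicate 5, Hoxb2 at 16.9 CPM in control replicate 1 and 1.74 CPM in E1 replicate 1, Hoxb6 at 40.6 CPM in E1 replicate 2, Hoxb4 at 18.3 CPM in E4 replicate 4 and Hoxb8 at 141 CPM in Ech replicate 3. E1 cord replicate 2 had an astrocyte marker sum of 21300 CPM, and E4 cord replicate 2 a myeloid marker sum of 4730 CPM.

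The interaction term for the response to EAE in cord and hindbrain GLASTneg astrocytes was called lower in cord for a few genes (edgeR's quasi-likelihood test). They were Hoxb2 (adjusted p = 0.0223), Hoxb4 (0.0499) and Hoxc9 (0.0439) at E4 and Hoxc6 (0.0401) at Ech. These make up 9.68% and 3.23% of the 31 tested Hox genes, against 6.00% and 5.26% of all genes called lower. Hoxc9 was at 0 in every control hindbrain library and Hoxb2 and Hoxc6 were close to 0 there, so these 3 had next to no level in hindbrain from which to fall, and the Hoxb4 call was lost with the numbers in the titles as a block (adjusted p = 0.0577).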

How the results depend on the processing

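The cord count at E4 was 12 to 21 genes under every alternative run. At E1 (1 gene) it was 2 with filterByExpr, 13 with the newer quasi-likelihood fit, 6 with the compared groups alone, 5 with sample number as a covariate and 3 with DESeq2, and at Ech (3 genes) 5 without a filter, 6, 15, 11, 5 and 5 in the same order. For E4 against E1 (2 genes) the newer fit gave 4, the compared groups alone 1, sample number 0 and DESeq2 1. For Ech against E4 (1 gene) the counts were 2 without a filter, 2 with filterByExpr, 6, 3 and, with DESeq2, 0. In hindbrain GLASTpos astrocytes the newer fit and the compared groups alone gave 0 at E4 (3 genes) and 0 at Ech (1 gene), where no filter gave 2 and DESeq2 4. The newer fit gave 1 for the E4 response and 0 for the Ech response, for which no filter gave 2, filterByExpr 2, the compared groups alone 4 and DESeq2 2. In FVB/N libraries DESeq2 gave 10 in each contrast with those labelled hindbrain GLASTneg, the newer fit gave 2 for forebrain GLASTpos against GLASTneg, and DESeq2 gave 2 for the cultures. From log2(CPM + 1) averaged over genes, the cord totals at E4 and Ech were 37.6% and 56.1% of control and the weighted position at Ech was 6.41, and without Hoxd4 the positions were 6.73, 6.88, 7.06 and 7.08 in control, E1, E4 and Ech. The causes were not tested.

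Under the names of the supplementary table, spinal cord against hindbrain GLASTneg had 0 genes lower and 8 higher, and the 3 other FVB/N contrasts had 4, 2 and 0 higher. Log2 fold changes reversed there for Hoxd4 (1.95), Hoxb8 (4.72), Hoxa5 (1.93), Hoxc6 (6.03), Hoxa7 (4.30), Hoxc8 (8.26), Hoxb4 (2.00), Hoxc9 (9.33), Hoxc4 (0.86), Hoxa9 (6.03), Hoxb6 (4.52) and Hoxd8 (5.02), for Hoxc9 in hindbrain GLASTneg against forebrain GLASTneg (-1.80) and for Hoxa5 in forebrain GLASTpos against GLASTneg (-3.69). These names exchange libraries between the groups.

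With 1 library left out, the count of calls was 0 to 2 at E1, 12 to 15 at E4 and 3 to 4 at Ech in cord, 0 to 3 for E4 against E1 and 1 to 2 for Ech against E4. It was 0 to 1, 1 to 3 and 0 to 2 at E1, E4 and Ech in hindbrain GLASTpos astrocytes (without Ech replicate 1, 0 higher and 1 lower), 17 for the control regions, 6 to 8 for the GLAST split, and 1 to 4 and 0 to 2 for the responses. In FVB/N libraries it was 14 to 17, 9 to 16, 12 to 16 and 1 to 4. Cord totals were 40.4 to 48.5% at E1, 22.5 to 26.2% at E4 and 37.5 to 44.7% at Ech, and positions 6.15 to 6.36 in control, 6.19 to 6.36, 6.22 to 6.28 and 6.61 to 6.70. The floor of 3 counts limits what could be seen of low genes in hindbrain.

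The numbers that titles of several populations share, taken as a block in a fit added after the data were seen, gave 15 calls between the control regions, 7 for the GLAST split, 1 for the E4 response (Hoxa5) and 4 for the Ech response. Replicate numbers did not pair the samples. With replicate number as a block, cord counts were 1, 13 and 4 at E1, E4 and Ech, 1 for E4 against E1 and 0 for the E4 response, and Hoxc4 at E4 (-2.03, adjusted p = 0.0345 with edgeR) and Hoxa5 at Ech (-1.78, 0.0454) were called.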
